A study of Arabidopsis thaliana with 12 samples.

Results

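The 4 photosystem II genes described here each had a feature of their own, out of 691 distinct genes that could be named and 3439 features in all. They were PSBW (AT2G30570) and PSBY (AT1G67740), which encode small membrane subunits, PSB27 (AT1G03600), which encodes an assembly factor, and LHB1B2 (AT2G34420, also called LHCB1.5), which encodes a protein of the outer antenna. A feature was taken only where the platform annotation assigned it to exactly 1 gene, and each of the 4 genes had 1 such feature and no place in a feature of several genes. The samples were wild-type (WT) Arabidopsis thaliana of ecotype Columbia 0 and the pete1 pete2 mutant in that ecotype, both raised on MS medium, a mineral mix used to grow plants in culture. Plastocyanin is missing in the mutant, in both of its isoforms, and neither the mutant alleles nor the age or tissue of the plants are stated in the labels. Each genotype had 6 columns of array intensities, numbered 1 to 6.

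Photosystem II is the pigment-protein complex of the thylakoid membrane that uses light energy to take electrons from water. The electrons pass through plastoquinone and the cytochrome b6f complex to plastocyanin, a copper protein of the thylakoid lumen, which hands them to photosystem I. The core of photosystem II is built from plastid-encoded proteins and from small nuclear-encoded subunits such as PsbW and PsbY, while the trimeric light-harvesting complex around it is made of Lhcb proteins encoded in the nucleus. In these samples the comparison of the genotypes shows the levels of 4 nuclear transcripts of this complex when the electron carrier further down the chain is missing.

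None of the 4 transcripts passed the test between the genotypes. After normalization PSBW had the higher mean in the mutant, 1.37 times the WT level, with a 95% confidence interval of 0.691 to 2.73. PSB27 had the lower mean, 0.653 times the WT level, with an interval of 0.338 to 1.26. PSBY, at 0.845 times (0.550 to 1.30), and LHB1B2, at 0.852 times (0.479 to 1.51), were also lower in mean. These intervals leave room for a higher as well as a lower level of each transcript. In RNA from whole samples, fewer cells of a type and less RNA per cell cannot be told apart.

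Total intensity per column ran from 3493 to 3778 relative units and the median intensity from 0.341 to 0.659. All 12 columns had their partner in the pairs 1 and 2, 3 and 4, or 5 and 6 of their genotype as the nearest column over all features. The mean of a pair was taken as 1 replicate, so that n = 3 for WT and n = 3 for the mutant. Nothing in the labels ties the samples to separate plants, and the p-values then measure the spread between these samples only, which may be technical. No feature was assigned to PETE1 or PETE2, the plastocyanin genes, so the genotype labels have no check from their transcripts. Of 4 genes marking root tissue and 4 RBCS genes marking green tissue, 0 had a feature, so the share of green tissue in a sample was not analysed here.

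PsbW is a single-span membrane protein at the edge of the photosystem II core, known for holding the core together with its antenna. In WT its deposited intensity was 36.1 and 41.1 in columns 1 and 2, 26.3 and 25.7 in columns 3 and 4, and 20.4 and 26.4 in columns 5 and 6. In the mutant it was 59.2 and 61.6, then 46.7 and 50.8, then 34.1 and 40.7. Mutant columns 5 and 6 lay below the highest WT column, and the other 4 mutant columns lay above all WT columns. None of these values reached 100, the top of the scale.

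PsbY is another small membrane protein of the core, cut from a longer precursor and found next to cytochrome b559. Its deposited intensity in WT was 1.70 and 1.53 in columns 1 and 2, 1.53 and 1.35 in columns 3 and 4, and 2.23 and 2.19 in columns 5 and 6. In the mutant it was 1.51 and 1.45, then 1.38 and 1.19, then 1.34 and 1.37. WT columns 5 and 6 stood above all other columns, and the remaining columns of the genotypes overlapped.

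Psb27 is a lumenal protein that joins photosystem II while the complex is being assembled or repaired and that, as known from cyanobacteria, leaves it before it splits water. In WT the deposited intensity of PSB27 was 7.47 and 6.23 in columns 1 and 2, 5.04 and 4.41 in columns 3 and 4, and 5.01 and 4.91 in columns 5 and 6. In the mutant it was 4.16 and 3.69, then 2.23 and 2.09, then 6.51 and 6.09. Mutant columns 1 to 4 lay below every WT column, whereas mutant columns 5 and 6 lay above WT columns 3 to 6.

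LHB1B2 encodes one of several closely alike Lhcb1 proteins, the most abundant chlorophyll-binding proteins of the trimeric antenna. In WT its deposited intensity was 9.20 and 11.99 in columns 1 and 2, 8.23 and 6.91 in columns 3 and 4, and 11.8 and 12.4 in columns 5 and 6. In the mutant it was 12.6 and 14.8, then 5.61 and 5.80, then 11.8 and 10.2. Columns 3 and 4 were the lowest of both genotypes, and the genotypes overlapped over most of their range. The probe sequence was not used here, so whether this feature also takes up transcripts of the other Lhcb1 genes was not tested.

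**Figure D1:**
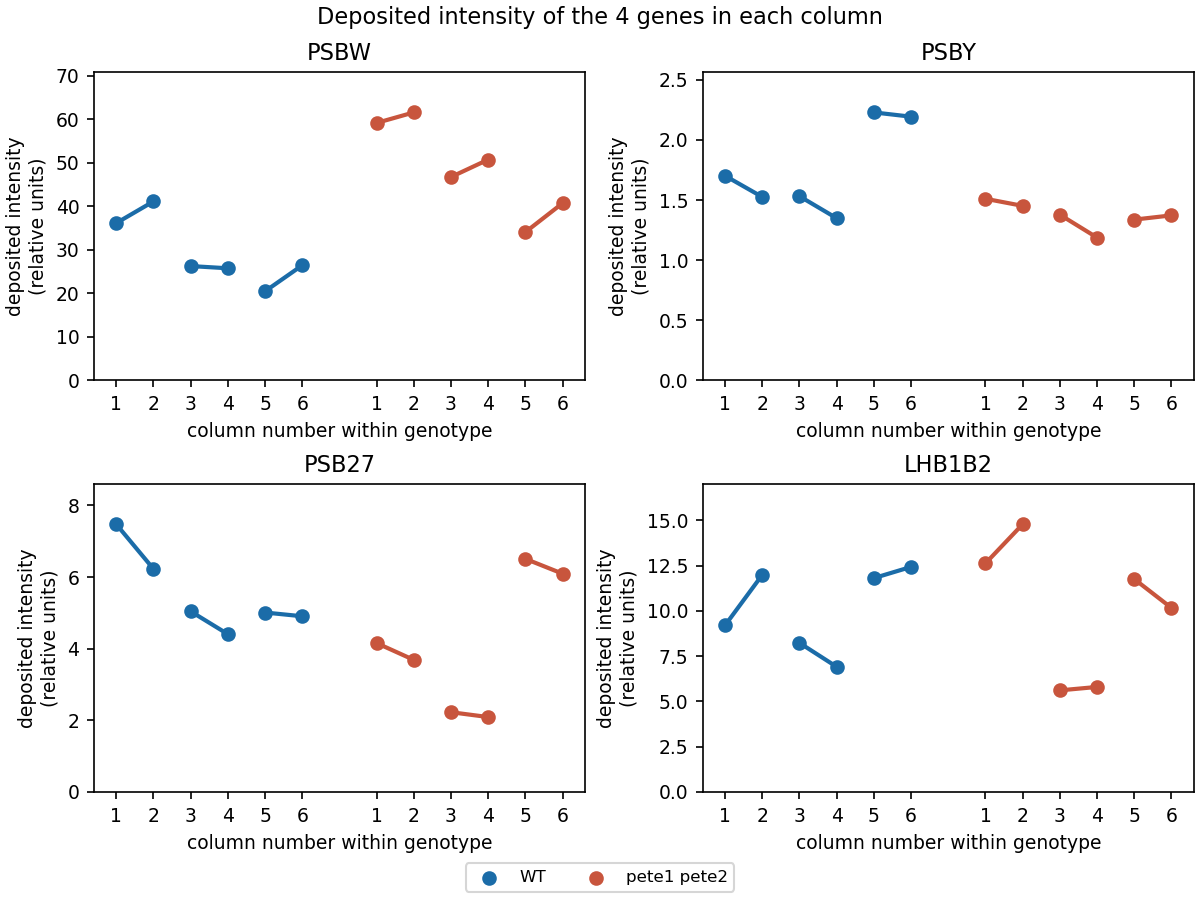
Deposited intensity (relative units, linear axis from 0) of the 4 genes against column number within each genotype; a line joins the columns of a pair, blue is WT and red is pete1 pete2. PSBW lies between 20.4 and 41.1 in WT and between 34.1 and 61.6 in the mutant, and the ranges of the genotypes overlap for each of the 4 genes.

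The 4 features covered much of the upper range of brightness on the array. Over the mean of all pairs PSBW was the 7th brightest of 3438 tested features, LHB1B2 the 36th, PSB27 the 86th and PSBY the 373rd. Among the 691 named genes they took places 3, 8, 14 and 62. A rank of brightness depends on the probe of each feature as well as on its transcript, so it does not order the genes by transcript number.

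A rank within a column does not change with the scaling of that column. PSBW ranked between 5 and 16 in WT columns (median 11) and between 4 and 11 in mutant columns (median 5.5). Its rank was 5 in WT columns 1 and 2, above mutant columns 5 and 6, which ranked 11 and 9. PSB27 ranked between 44 and 98 in WT (median 81) and between 70 and 237 in the mutant (median 117). PSBY ranked between 236 and 517 in WT (median 410.5) and between 364 and 724 in the mutant (median 438). LHB1B2 ranked between 24 and 55 in WT (median 32.5) and between 29 and 60 in the mutant (median 42). The ranks of the genotypes overlapped for every one of the 4 genes.

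**Figure D2:**
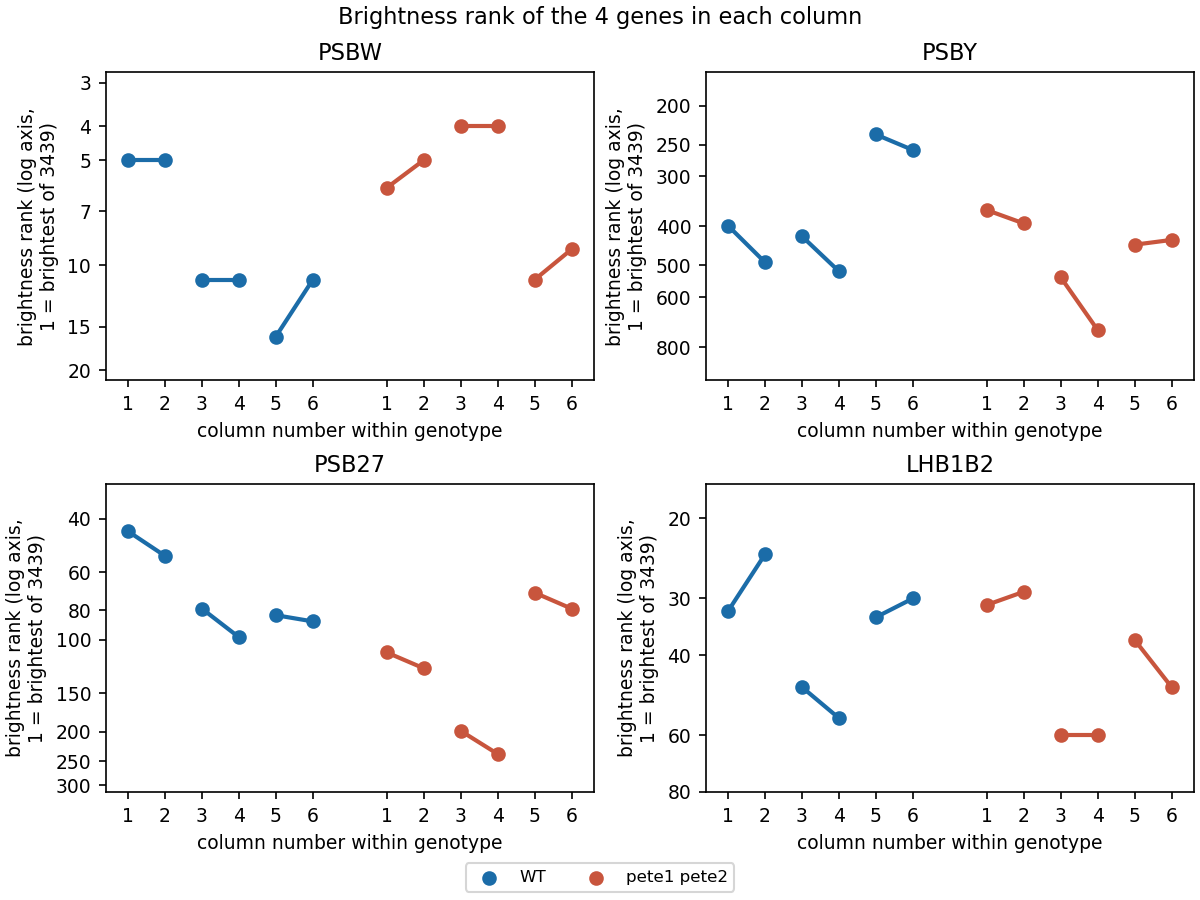
Brightness rank of each gene in each column (log axis, turned so that rank 1, the brightest of 3439 features, is at the top); a line joins the columns of a pair. PSBW ranks between 4 and 16 in all columns, and the lowest places of PSB27 (237), PSBY (724) and LHB1B2 (60) are all in mutant columns 3 and 4.

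In the median, the columns of a pair were closer for these genes than columns of different pairs were. Gene by gene, the nearest column was the partner in 6 of 12 columns for PSBW and 5 for PSBY. It was the partner in 7 for PSB27 and 2 for LHB1B2. These counts used normalised intensities, and for each gene a tie counted for the first column. PSBW had the same value, 27.1, in WT columns 3, 4 and 6 and mutant column 5, so ties partly set its count. Such a count was not made for other single features. On the log2 scale after normalization, the median absolute difference within a pair was 0.070 for PSBW, 0.14 for PSBY, 0.16 for PSB27 and 0.15 for LHB1B2, each over 6 pairs, beside 0.11 for the typical pair over all features. Between other columns of the same genotype it was 0.79, 0.42, 0.65 and 0.58, in the same order. Between columns of different genotypes it was 0.65, 0.29, 0.53 and 0.41, below the value for columns of the same genotype from different pairs in each of the 4 genes. As deposited, without normalization, the median within a pair was 0.15 for PSBW, 0.11 for PSBY, 0.13 for PSB27 and 0.22 for LHB1B2. The typical pair over all features had 0.12. On that scale the medians between columns of different genotypes were higher than those between other columns of the same genotype for PSBW (0.75 against 0.46) and PSBY (0.27 against 0.19). They were lower for PSB27 (0.46 against 0.63) and LHB1B2 (0.48 against 0.57).

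As deposited, the widest disagreement within a pair was a factor of 1.30, for LHB1B2 in WT columns 1 and 2, and 7.48% of features differed more in that pair. PSBW differed by a factor of 1.29 in WT columns 5 and 6, where 8.87% of features differed more. Because quantile normalization sets a value by its rank, PSBW received the same normalised intensity in both columns of 3 of the 6 pairs.

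**Figure D3:**
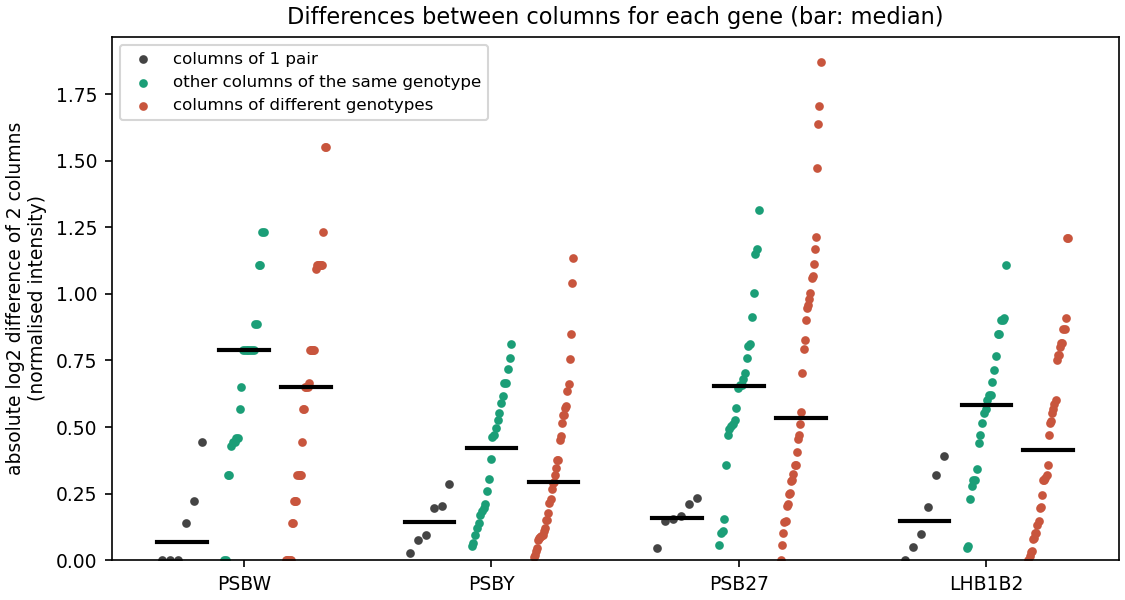
Absolute log2 difference in normalised intensity between 2 columns for each gene, for columns of 1 pair (6 points), other columns of the same genotype (24) and columns of different genotypes (36); the bar is the median. For PSBW the medians are 0.070, 0.79 and 0.65, and in all 4 genes the median is lowest for the columns of a pair, while the single points overlap.

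Counted over pairs, PSBW had a normalised intensity of 46.8, 27.1 and 23.2 in WT and 44.6, 58.4 and 29.2 in the mutant. The means were 32.4 ± 12.7 and 44.1 ± 14.6 (SD, n = 3), and the log2 difference was 0.46 (SE 0.38). Limma's adjusted p was 0.989 and the exact permutation p was 0.3 (two-sided). With 3 pairs against 3, that permutation test cannot go below 0.1.

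PSB27 measured 7.73, 4.78 and 4.87 in WT and 3.81, 2.42 and 5.42 in the mutant. Its means were 5.79 ± 1.67 and 3.88 ± 1.50 (SD, n = 3), a log2 difference of -0.62 (SE 0.37), with a limma adjusted p of 0.964 and an exact permutation p of 0.3. The third mutant pair lay above the lower WT pairs, so the genotypes overlapped. The distance between the mutant pairs, 2.42 to 5.42, exceeded that between the means of the genotypes.

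PSBY measured 1.46, 1.40 and 2.22 in WT and 1.62, 1.15 and 1.46 in the mutant, with means of 1.69 ± 0.460 and 1.41 ± 0.235 (SD, n = 3). The log2 difference was -0.24 (SE 0.24), with a limma adjusted p of 0.989 and an exact permutation p of 0.6. Without WT columns 5 and 6, its high pair, the log2 difference was -0.029. LHB1B2 measured 13.0, 7.39 and 11.4 in WT and 11.8, 6.44 and 8.86 in the mutant, with means of 10.6 ± 2.87 and 9.03 ± 2.69 (SD, n = 3). Its log2 difference was -0.23 (SE 0.32), with a limma adjusted p of 1 and an exact permutation p of 0.6.

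**Figure D4:**
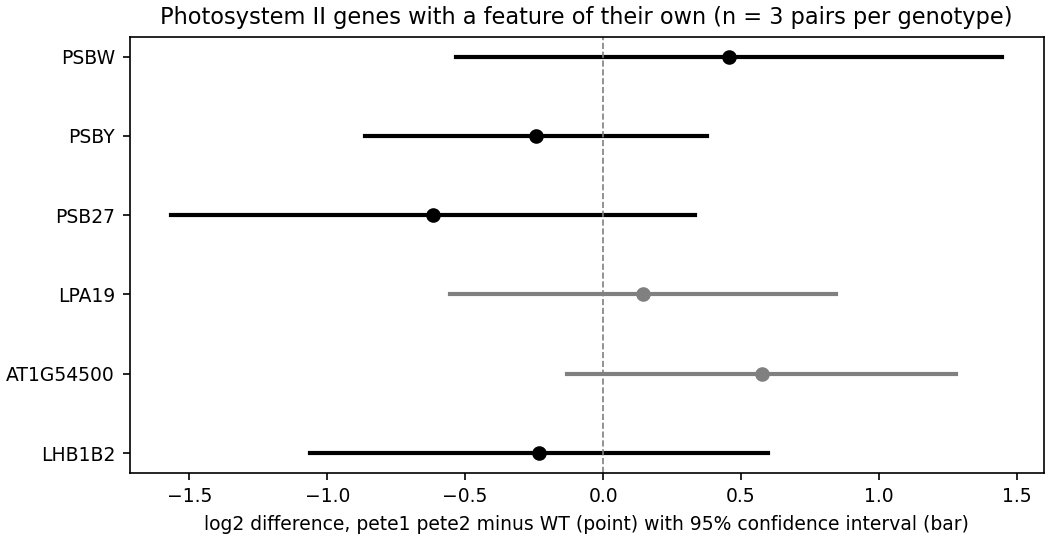
Log2 difference between pete1 pete2 and WT (point) with its 95% confidence interval from limma (bar, n = 3 pairs per genotype) for the 4 genes in black and for the other photosystem II genes with a feature of their own in grey. Every bar crosses 0, and the points run from -0.62 for PSB27 to 0.58 for AT1G54500.

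Of the 4 genes, 0 passed limma's test at an adjusted p of 0.05, a level that 1 of 3438 features, or 0.0291%, reached. At an unadjusted p under 0.05 the count was again 0 of 4, where 7.3% of all features passed. The pair values of the genotypes did not overlap for 0 of 4, against 9.92% of all features. After quantile normalization the median log2 difference of the 4 genes was -0.24, and that of all features was -0.01. This gap depended on the scaling. With median centring the log2 difference was 1.02 for PSBW, 0.21 for LHB1B2, -0.06 for PSBY and -0.26 for PSB27. The median of all features under that scaling was -0.0076, so the 4 genes lay on both sides of it. In size, 19.1% of features had a larger log2 difference than PSBW, 10.5% a larger one than PSB27, 44.6% a larger one than PSBY and 46.8% a larger one than LHB1B2.

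The spread between pairs was wider than that of the median feature for PSBW, PSB27 and LHB1B2, and narrower for PSBY. The pooled SD of the log2 pair values within a genotype was 0.52 for PSBW, 0.50 for PSB27, 0.43 for LHB1B2 and 0.32 for PSBY. The median over all features was 0.38, and over the brightest 344 features it was 0.32. The genes did not share a common order of pairs. After normalization PSBW was highest in mutant columns 3 and 4, the pair in which PSB27, PSBY and LHB1B2 were each at their lowest.

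The values of PSB27 and LHB1B2 rested on mutant columns 3 and 4 more than on any other mutant pair. Without mutant columns 3 and 4 the log2 difference of PSB27 was -0.31 in place of -0.62, and that of LHB1B2 was 0.0014 in place of -0.23. That of PSBW was 0.21 without the same columns, and 0.77 without mutant columns 5 and 6. Mutant columns 3 and 4 also had the highest column medians of all columns, 0.659 in each, against 0.341 to 0.402 in the other mutant columns. WT columns 3 and 4 had the lowest medians of the WT columns, 0.485 and 0.489. The part of the column medians in the members' values was not tested.

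The difference of PSBW also moved with the scaling between arrays. Its log2 difference was 0.74 (SE 0.28) with the values as deposited, with an interval from 0.02 to 1.47, and its limma adjusted p was 0.706. It was 0.76 with scaling to the total and 1.02 with median centring, with limma adjusted p-values of 0.658 and 0.759. The unadjusted p of PSBW under these scalings, 0.0459, 0.0412 and 0.0205, was under 0.05. That level was reached by 6.98% of all features as deposited, 7.5% with scaling to the total and 5.79% with median centring. Relative to the median of all features, which was -0.27 as deposited, the log2 difference of PSBW was 1.02, that of PSB27 was -0.25, that of PSBY was -0.06 and that of LHB1B2 was 0.22. The log2 difference of LHB1B2 itself was -0.06 as deposited and 0.21 with median centring, while those of PSB27 and PSBY were negative under each of these scalings.

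The sign of the difference as deposited varied with the brightness of the features compared. Of the 34 brightest features by their mean over all pairs, 23 had a positive log2 difference as deposited, with a median of 0.23, and for 7 of the 34 it was larger than that of PSBW. After quantile normalization their median was 0.01. Of the 344 brightest, 158 had a positive log2 difference as deposited, with a median of -0.04. The intensity at rank 8, the median rank of PSBW over all columns, was between 24.6 and 31.9 in WT columns and between 30.7 and 43.2 in mutant columns.

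**Figure D5:**
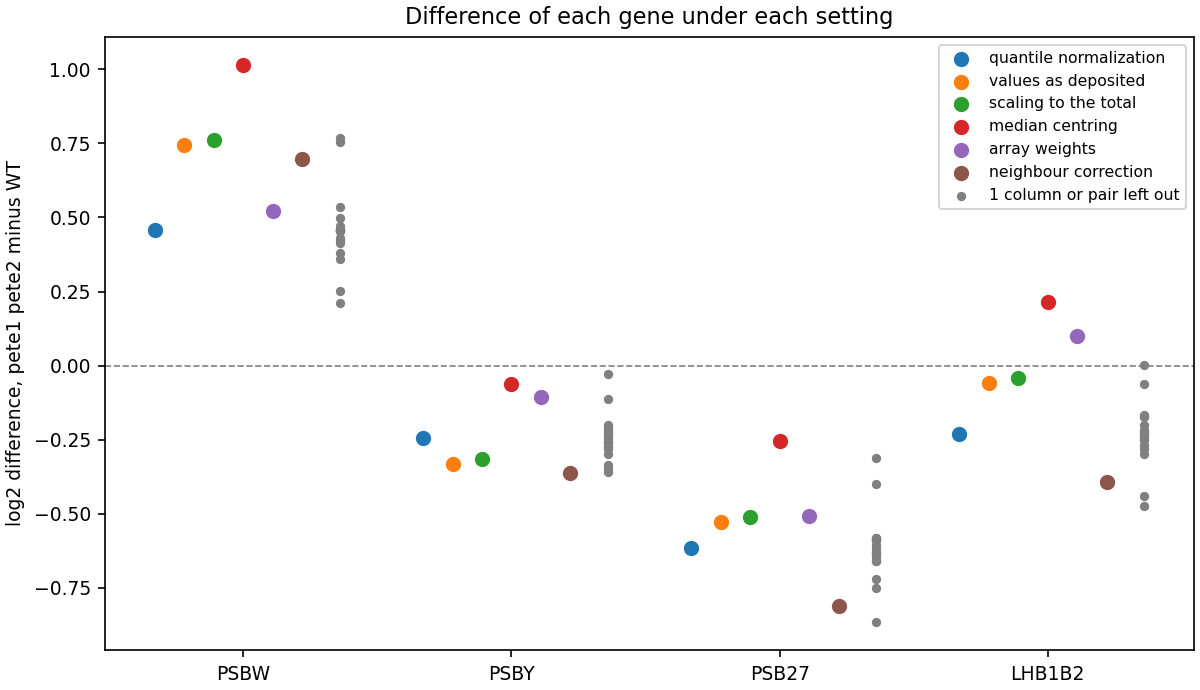
Log2 difference between pete1 pete2 and WT for each gene under the scalings, with array weights and with the correction for neighbouring features (coloured points), and with 1 column or pair left out (grey points). PSBW stays above 0, from 0.21 to 1.02, PSB27 and PSBY stay below 0, and LHB1B2 lies on both sides.

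A ratio of features on the same array does not depend on the scaling of that array. As deposited, the log2 ratio of PSBW to PSB27 was higher in the mutant by 1.27 and that of PSBW to PSBY by 1.08, and for both of these the 3 mutant pairs lay above the 3 WT pairs. The log2 ratio of PSBW to LHB1B2 was higher by 0.80, with overlapping pairs, and the 3 ratios among PSBY, PSB27 and LHB1B2 overlapped as well. PSBW had a ratio without overlap, higher in the mutant, to 48.9% of the 3043 other features above 0 in every column, where the median feature had one to 1.02% and 38 features had one to more than PSBW. Against the 33 others of the 34 brightest features it was without overlap for 2, and against the 343 others of the 344 brightest for 113. After quantile normalization all 6 ratios among the 4 genes overlapped.

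Array features with neighbouring numbers had log2 differences of other sizes or signs than the 4 genes. The 10 features nearest to PSBW by number had a median log2 difference of -0.14, and 3 of them were positive. Those around PSB27 had a median of 0.27, those around LHB1B2 of 0.15 and those around PSBY of 0.0047. In the median the neighbours were dimmer than the gene they surround. Their median normalised intensity was 0.667 around PSBW, 0.555 around PSB27, 0.906 around LHB1B2 and 0.670 around PSBY. When the median deviation of these neighbours was taken off, the log2 difference was 0.70 for PSBW, -0.81 for PSB27, -0.39 for LHB1B2 and -0.36 for PSBY, each with a limma adjusted p of 0.994.

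A wider list of 56 nuclear genes for photosystem II held 12 subunits, 29 assembly and repair factors and 15 antenna proteins. Of these, 6 had a feature of their own: 2 subunits, 3 assembly and repair factors and 1 antenna protein. A further 6 were found only in features of several genes, among them LHCB4.1, LHCB4.2 and LHCB4.3, the genes of the antenna protein CP29, which share 1 feature. Of the 6 with their own feature, 0 passed in either direction (limma, adjusted p), 0 had an unadjusted p under 0.05, and 3 had a positive log2 difference. The median over the 6 was -0.04.

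AT1G54500 and LPA19 were the others with a feature of their own, both assembly factors. AT1G54500 encodes a thylakoid rubredoxin-like protein needed for photosystem II to accumulate. Its deposited intensity in WT was 1.20 and 1.16 in columns 1 and 2, 0.530 and 0.553 in columns 3 and 4, and 0.686 and 0.677 in columns 5 and 6. In the mutant it was 1.14 and 1.13, then 1.21 and 1.20, then 0.698 and 0.723. WT columns 1 and 2 lay close to mutant columns 1 to 4, and mutant columns 5 and 6 lay below these and just above WT columns 5 and 6. The normalised means were 0.745 ± 0.238 and 1.09 ± 0.192 (SD, n = 3), a log2 difference of 0.58 (SE 0.27), with a limma adjusted p of 0.845 and an exact permutation p of 0.2. It passed in a single alternative, with the 12 columns as separate samples and a block on the replicate number (limma adjusted p = 0.0405), where both columns of a pair count as independent samples.

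LPA19 is a relative of PSB27 that acts in the maturation of the D1 protein, the reaction-centre protein of photosystem II. It was dim, with deposited intensities between 0.296 and 0.452 in WT and between 0.270 and 0.443 in the mutant. Its log2 difference was 0.15 (SE 0.27) with a limma adjusted p of 1, and was -0.12 with the values as deposited. The shared feature of LHCB4.1, LHCB4.2 and LHCB4.3 had a normalised intensity of 1.36 ± 0.202 (SD, n = 3) in WT against 1.34 ± 0.122 (SD, n = 3) in pete1 pete2, a log2 difference of -0.01 (SE 0.15). The other 3 features shared with genes of the list held assembly factors. The one shared by LPA1 and AT4G28740 had a log2 difference of 0.68 (SE 0.44), the one shared by PAM68 and AT5G52780 one of 0.41 (SE 0.45), and the one that holds AT3G60370 among 4 genes one of -0.02 (SE 0.22). None of the 4 shared features passed limma's test, and which gene each of them measured cannot be told here.

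Across the 6 pair values, the pattern of LHB1B2 ran with that of PSB27 at a Pearson's r of 0.66 and with that of PSBY at 0.65, while PSBW had an r of -0.67 with PSBY, -0.40 with PSB27 and -0.10 with LHB1B2. These are descriptions over 6 points that share the arrays and the normalization. Among 318 other named genes above the median brightness and never at the floor, the closest to PSBW were AT2G19280 (r = 0.96), AT2G26680 (0.94) and AGL26 (0.93). The closest to PSB27 were AT5G43770 (0.95), AT3G16760 (0.92) and AT2G36560 (0.90). The closest to LHB1B2 were AT5G22620 (0.98), AT3G17550 (0.94) and AT2G32470 (0.94), and those to PSBY were AT3G50180 (0.89), AT3G23940 (0.89) and AT1G55440 (0.86). No photosystem II gene of the list was among these 12. Only the 6 listed genes with a feature of their own could have been, and LPA19, dimmer than the median feature, was not a candidate. Their absence therefore says little about the other genes of the list. An r over 0.9 was reached by 6 of the 318 candidates for PSBW, 2 for PSB27, 6 for LHB1B2 and 0 for PSBY. The correlations named are the highest of 318 over 6 points, so their size partly follows from that choice.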

How the data were processed

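Total RNA from 6 WT and 6 pete1 pete2 samples was measured on arrays, and the values were linear intensity values as deposited by the authors, 3439 features in 12 columns. The labels do not state how the images were read, whether background was subtracted or what the values are relative to (not given in the sources used here). Columns were grouped by the titles in the labels.

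Quantile normalization was applied over the columns, a floor of 0.0225 (the 1st percentile of positive intensities) was set, and values were put on the log2 scale. Columns 1 and 2, 3 and 4, and 5 and 6 were averaged per genotype. For the 1 gene with 2 features their mean was used, and 3438 features entered the test. The genotypes were compared in limma 3.58.1 (R 4.3.3, lmFit and eBayes, two-sided) over all features, with Benjamini-Hochberg adjustment at 0.05. The fit was run on simulated data with independent noise and planted differences larger than those of the 4 genes. Its power at the size of their differences was not checked. Intensities are given as the mean and SD of 3 pair values.

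Gene names came from the annotation of the platform, and 690 of 692 single-gene identifiers matched the TAIR10.1 table. Coordinates are not given, as the array names no genome build, and sequences are not given, as the sources used here held none. The named genes are the 4 members, the other listed photosystem II genes with a feature of their own and the 3 genes most correlated with each member. The members, the lists and the processing were chosen with earlier results of these data known. The alternatives tried were other scalings, a pseudocount of 0.0872 for the floor, removal of dim features, other variance models, blocks, a correction by 10 neighbouring features, the 12 columns as separate samples, and leaving out each column or pair.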

Additional observations from a re-analysis of the deposited data

How the results depend on the processing

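None of the 4 members passed limma's test under any of 38 alternatives, and of 152 values 147 kept their direction. All 5 that did not were of LHB1B2: its log2 difference was 0.21 with median centring, 0.10 with array weights (where the weights did not fully converge), 0.0014 without mutant columns 3 and 4, and, as deposited, 0.31 without that pair and 0.091 without WT columns 5 and 6. The count of 147 was partly fixed in advance and does not measure robustness. Removing dim features, taking the columns as separate samples or adding a block left every log2 difference of the members unchanged. The same held for variance models other than array weights. These settings alter the test only, so their values could not change direction. Settings without 1 column share nearly all of their data with the main test. Settings that combine the deposited values with a block or an omission, and all those for LPA19 and AT1G54500, were chosen after seeing the data. With 1 column or pair omitted, the log2 difference lay between 0.21 and 0.77 for PSBW, -0.36 and -0.029 for PSBY, -0.87 and -0.31 for PSB27, and -0.47 and 0.0014 for LHB1B2. The correlation of deviations between same-numbered pairs of the genotypes was 0.32, 6e-04 and 0.39. Between pairs of different numbers it lay between -0.40 and 0.16. The deviations within a genotype sum to 0, so these correlations are linked and are not separate evidence for each number. The main test left the samples unpaired, and whether the numbers pair them cannot be settled here. With a replicate block on the pair number the limma adjusted p was 0.845 for PSBW, 0.883 for PSBY, 0.793 for PSB27 and 0.751 for LHB1B2, and 0 features were higher in the mutant in place of 1. The SE with that block was 0.295, 0.199, 0.325 and 0.105, in the same order. With that block on the deposited values the log2 difference of PSBW was 0.74 (SE 0.13, limma adjusted p = 0.696). LPA19 changed sign with the values as deposited (-0.12, also with the block), scaling to the total (-0.10), the neighbour correction (-0.072), without mutant columns 5 and 6 (-0.10; -0.17 as deposited), and as deposited without WT columns 1 and 2 (-0.12), 3 and 4 (-0.22) or 5 and 6 (-0.012) or mutant columns 3 and 4 (-0.24). With 1 column or pair omitted after quantile normalization it ranged from -0.10 to 0.34.

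Over all features, 0 were higher in the mutant with the values as deposited (also with the block or without any 1 pair), median centring or scaling to the total. There were 2 higher without the dimmest 50%, 149 higher and 75 lower with the 12 columns as separate samples, 156 and 93 with a replicate block added to these, and 15 and 4 with the pair as a random block. There was 1 lower with array weights and 2 with the neighbour correction. Leaving out 1 column or pair gave 0 to 1 higher and 0 to 1 lower. LPA19 was dimmer than the median feature, and the level of background on the arrays is not known here. For each change listed here the cause was not tested.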
